A study of Mus musculus with 10 samples.

Results

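Red blood cells were recovered alongside the hormone-producing cells of the dissociated mouse pituitary, and they are described here through the RNA that accompanies their globin. A red cell barcode was defined as a cell barcode with at least 300 UMIs (counted RNA molecules), at least 20 genes if made by Drop-seq, a mitochondrial share below 0.1, and at least 50% of its UMIs from Hbb-bs, Hbb-bt, Hba-a1 and Hba-a2. These limits selected 1554 of 25903 passing barcodes (6.0%), of which 347 came from 2 libraries of the 10X Genomics platform and 1207 from 8 libraries made by Drop-seq, a bead-in-droplet method. Because the members were chosen by their globin content, the globin share itself is a description, and the comparisons below use the other RNA, with the 4 globin genes removed from all totals.

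By their labels all mice were of the outbred CD1 strain, and the pituitaries were dispersed without enzymes. The 10X libraries, 1 labelled female and 1 labelled male, came from WT mice of 8 weeks. The Drop-seq libraries were 2 WT females and 2 WT males of 8 weeks (titled WT-8wk-0324-female, WT-8wk-0511-female, WT-8wk-0324-male and WT-8wk-0511-male), 1 library of females of 8 weeks carrying the mt/hGRF transgene, in which a metallothionein promoter drives human growth hormone releasing hormone, 1 library of a WT virgin female of 13 weeks and 2 libraries of WT lactating females of 13 weeks. The WT Drop-seq libraries of 8 weeks, the mt/hGRF library and the second lactating library each pooled 2 mice, so the spread between libraries is not the spread between single animals.

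The circulating red cell of an adult mammal has no nucleus and makes no new RNA. The youngest circulating cells, the reticulocytes, still carry the RNA made before the nucleus was lost, most of it for the alpha and beta chains of hemoglobin, together with RNA for heme synthesis, iron handling and the removal of organelles. In the pituitary these cells arrive with the blood of its dense capillary bed and make no pituitary hormone, so hormone RNA found with them is usually read as free RNA taken up in the droplet.

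Over all libraries together, the globin share separated the barcodes with few in between. Of the passing barcodes, 24163 held less than 1% globin UMIs, 93 held 1% to 5%, 93 held 5% to 50%, 180 held 50% to 80%, 516 held 80% to 90% and 858 held 90% or more. The separation was less clean in 2 libraries. Barcodes at 5% to 50% numbered 30 in the second lactating library, against 124 members, and 28 in the mt/hGRF library, against 251. Each other library held 1 to 8 of them. The 13 members just inside the limit, at 50% to 55%, had a median of 231 genes, and the 11 barcodes just outside, at 45% to 50%, a median of 257 genes. Over all members the median number of genes in a library was only 49.5 to 104, against 295 to 619 in the other passing barcodes, although the median number of UMIs was higher in red cell barcodes (2509 and 2530 in 10X, 875 to 1191.5 in Drop-seq) than in the others (951 to 1249 and 525.5 to 796.5). Without globin, a red cell barcode held a library median of 81 to 214.5 UMIs. No doublet caller was used, and 59 members with over 200 genes, which could hold a red cell and another cell, were left out in an alternative. No member barcode occurred in more than 1 library, while 17 of all passing barcodes did.

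The number of red cell barcodes varied from library to library. They made up 6.16% (131 barcodes) of the 10X female library and 9.26% (216) of the 10X male library. In the 8-week WT Drop-seq libraries they made up 4.32% (44) in WT-8wk-0324-female, 4.40% (70) in WT-8wk-0511-female, 10.5% (121) in WT-8wk-0324-male and 2.85% (63) in WT-8wk-0511-male. Below, a pair of values for WT females or WT males gives the earlier-named library first. The mt/hGRF library held 8.32% (251), the virgin library 7.04% (287), and the lactating libraries 8.12% (247) and 2.32% (124). The 2 male Drop-seq libraries were the highest and the second lowest of all, and the lactating libraries differed more from each other than the first did from the virgin library. Over 3 libraries of each sex the share was 4.96% ± 1.04 (SD) in females and 7.55% ± 4.12 in males, a difference not larger than the spread (two-sided exact permutation test, p = 0.4, adjusted p = 0.7 over 4 sex comparisons, smallest possible p 0.1). Fewer red cells in a gland and fewer red cells with 300 UMIs cannot be told apart in this share.

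**Figure D1:**
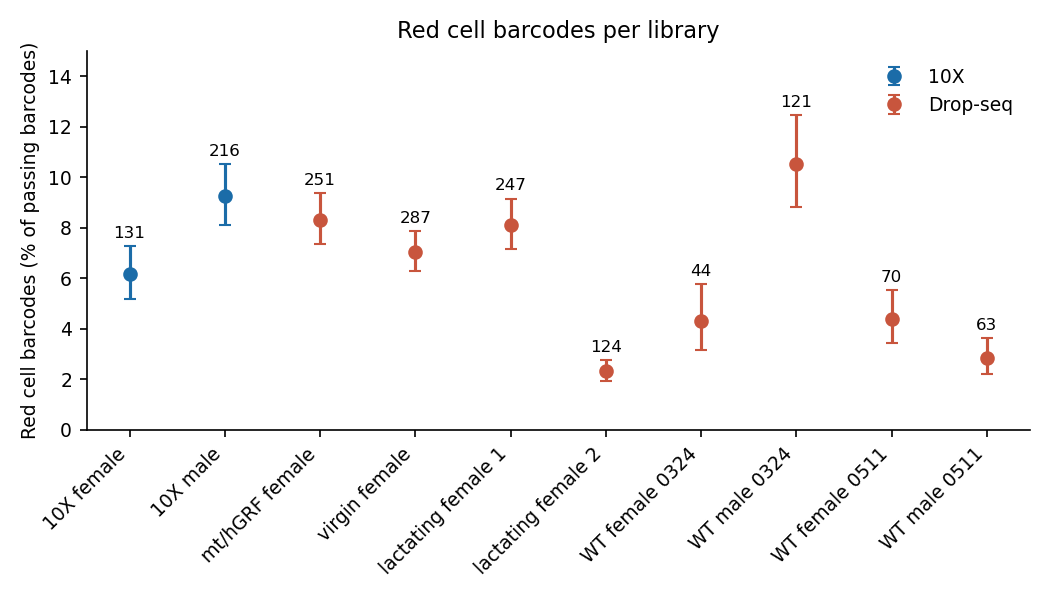
Share of red cell barcodes among passing barcodes in each of the 10 libraries (y axis, percent), with exact 95% binomial intervals that cover counting error only and the number of red cell barcodes above each point. The shares run from 2.32% in the lactating female 2 library to 10.5% in WT-8wk-0324-male, and the 2 male Drop-seq libraries are far apart, at 10.5% and 2.85%.

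Before the RNA is described, 2 features of the libraries need stating. In the WT-8wk-0511-female library the other cell barcodes held Eif2s3y, a gene of the Y chromosome, at 1.26 per 10000 non-globin UMIs, where the other female libraries held at most 0.107 and the males 0.926 to 3.47. Genes of the Y chromosome were too low in red cell barcodes to check the label there, with 1 UMI of Eif2s3y and 4 of Ddx3y over the 3 male libraries and 0 over the 7 female libraries. Xist, the RNA that coats the inactive X chromosome, was seen in the red cell barcodes of all 7 female libraries (3.20 to 19.6 per 10000) and in no red cell barcode of the 3 male libraries, with 24.3 to 56.2 and 0.00950 to 0.880 in the other cell barcodes of females and males.

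The beta-globin genes of the adult lie next to each other on chromosome 7 (GRCm38, minus strand), Hbb-bt at chr7:103812524-103813996 and Hbb-bs at chr7:103826534-103828096, and the alpha-globin genes on chromosome 11 (plus strand), Hba-a1 at chr11:32283511-32284465 and Hba-a2 at chr11:32296489-32297298. The last 120 bases before their RefSeq start sites, which differ from the GENCODE gene starts above, are shown because the 4 genes, chosen together, carry the same short motifs, whereas Alas2, the erythroid gene with the largest fold change against other cells, carries a different set. They are RefSeq promoter sequences of GRCm38.p6, with capitals marking the motif CACCC, the box CCAAT, the TATA box letters TATAA and the GATA letters GATAA, each on either strand.
Hbb-bs (chr7:103827929-103828048, minus): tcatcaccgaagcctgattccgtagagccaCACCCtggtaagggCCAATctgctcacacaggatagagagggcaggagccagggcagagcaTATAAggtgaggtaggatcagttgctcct
Hbb-bt (chr7:103813924-103814043, minus): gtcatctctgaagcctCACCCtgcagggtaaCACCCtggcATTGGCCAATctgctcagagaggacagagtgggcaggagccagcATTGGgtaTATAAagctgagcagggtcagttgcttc
Hba-a1 (chr11:32283552-32283671, plus): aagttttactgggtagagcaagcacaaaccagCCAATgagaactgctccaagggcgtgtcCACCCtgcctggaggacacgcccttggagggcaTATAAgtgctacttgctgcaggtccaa
Alas2 (chrX:150547297-150547416, plus): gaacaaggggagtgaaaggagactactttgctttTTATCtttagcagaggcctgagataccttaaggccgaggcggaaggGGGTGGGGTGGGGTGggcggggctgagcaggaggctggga
Hba-a2, whose window held the same number of each motif as that of Hba-a1, is not shown. Each globin window held at least 1 CACCC, 1 CCAAT and 1 TATAA and no GATAA. The Alas2 window held 3 CACCC on its other strand, 1 GATAA on its other strand and neither CCAAT nor TATAA. Among 32851 RefSeq promoter windows of the same length, 31.7% held CACCC, 21.3% CCAAT, 11.8% TATAA and 10.5% GATAA, so a match to these short words is common and describes the letters only.

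The balance of the 4 globin genes, which the selection did not fix, differed by platform. In the 10X libraries alpha-globin made up 52.4% (female) and 52.2% (male) of the 4-gene total. By Drop-seq it made up 25.6% in the mt/hGRF library, 26.1% in the virgin, 27.6% and 22.9% in the lactating, 36.1% and 34.2% in the WT female, and 24.6% and 34.9% in the WT male libraries. No Drop-seq library reached the 10X values, and the 4 libraries of 8-week WT mice themselves spanned 24.6% to 36.1%. Within alpha-globin, Hba-a2 gave 13452 and 16395 UMIs in the 10X libraries, 2.94% and 2.33% of the 4 genes, but only 12 to 45 UMIs in any Drop-seq library (0.0114% to 0.0435%). In the reference annotation, the Hba-a2 transcript of 554 bases shares 86.9% of its 50-base windows with Hba-a1, and the coding sequences of both differ at 1 of 429 bases. The Drop-seq counts used uniquely mapped reads only. The part of sequence identity in this difference was not tested, so Hba-a1 and Hba-a2 are best read as their sum. Platform and groups cannot be told apart except among the 8-week WT mice.

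Hbb-bt, the less abundant beta-globin gene, made up 13.3% and 15.1% of beta-globin UMIs in the 10X female and male libraries. By Drop-seq its share was 19.1% in the mt/hGRF, 19.7% in the virgin, 17.3% and 19.1% in the lactating, 15.4% and 17.8% in the WT female and 15.4% and 18.7% in the WT male libraries. Both 10X values lay below every Drop-seq value, which ran from 15.4% to 19.7%. Females and males of 8 weeks did not separate (15.5% ± 2.27 and 16.4% ± 1.96, n = 3 each, two-sided exact permutation test, p = 0.7), nor did they in the alpha share (40.9% ± 10.0 and 37.2% ± 13.97, exact permutation p = 0.7) or the Hba-a1 share of alpha-globin (98.1% ± 3.17 and 98.5% ± 2.55, exact permutation p = 0.5), each with an adjusted p of 0.7. Within the 3 pairs of libraries (10X, WT-8wk-0324 and WT-8wk-0511) the Hba-a1 share was higher in the male in 3 of 3 pairs, by 0.0432 to 1.14 percentage points, and the Hbb-bt share in 2 of 3. In the Drop-seq libraries of these pairs the Hba-a1 share rested on only 12 to 38 Hba-a2 UMIs. Because the alpha genes are best read as their sum, no sex difference is read from it. The two-sided exact permutation test within pairs gave p = 0.25 for the Hba-a1 share, the smallest that 3 pairs allow, and an adjusted p of 0.667 over 4 comparisons. Hbb-bt and Hbb-bs also share most of their coding sequence, which differs at 1 of 444 bases, and 58.3% of the 50-base windows of the Hbb-bt transcript occur in Hbb-bs.

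**Figure D2:**
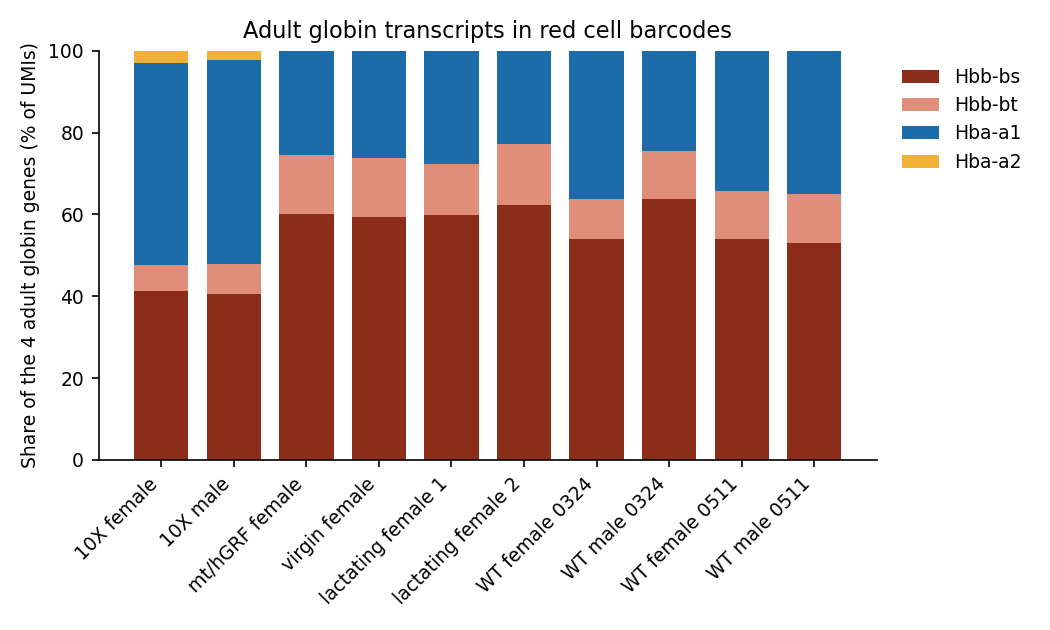
Shares of Hbb-bs, Hbb-bt, Hba-a1 and Hba-a2 in their summed UMIs (stacked bars, percent) over the red cell barcodes of each library. The alpha genes take 52.4% and 52.2% in the 10X libraries and 22.9% to 36.1% by Drop-seq, while Hba-a2 is visible only in the 10X bars.

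Red cell barcodes with more UMIs had more Hbb-bt relative to Hbb-bs. The members of each library were ordered by UMIs and split into terciles, a comparison chosen once the counts had been examined and therefore described with no test. The Hbb-bt share of beta-globin rose from 4.08% in the lowest tercile to 15.5% in the highest in the 10X female, from 4.83% to 18.2% in the 10X male, from 16.5% to 21.1% in the mt/hGRF, from 14.1% to 22.8% in the virgin, and from 9.82% to 20.1% and 17.3% to 20.1% in the lactating libraries. In the WT libraries it rose from 10.5% to 18.8% and 6.93% to 22.1% (females), and 9.49% to 18.2% and 8.37% to 22.0% (males). The share was higher in the highest tercile in 10 of 10 libraries, with means of 10.2% ± 4.55 and 19.9% ± 2.26 (SD, n = 10) and a difference of 9.68 ± 3.92 percentage points. The highest terciles lay closer together (15.5% to 22.8%) than the lowest terciles (4.08% to 17.3%). Across single red cell barcodes, the Spearman rho of the Hbb-bt share with UMIs was 0.308 to 0.824 in the 10 libraries (44 to 287 barcodes each, which share their library and free RNA).

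The RNA for proteins of the maturing red cell also took a larger part of the non-globin RNA in barcodes with more UMIs. Genes of 3 lists (heme synthesis and iron, red cell membrane and skeleton, and late maturation) made up 537 ± 219 of 10000 non-globin UMIs in the lowest and 1377 ± 673 in the highest tercile (higher in 10 of 10 libraries). In the 10X female library the sum rose from 348 to 2496 and in the 10X male from 468 to 2535, the largest steps of the 10 libraries. Alas2 alone went from 153 ± 79.7 to 332 ± 158 per 10000, higher in 9 of 10 libraries. The exception was the second lactating library, at 132 and 120 per 10000. The alpha share of the 4 globins was 37.4% ± 14.9 in the lowest and 32.8% ± 9.94 in the highest tercile, higher in the highest in 3 of 10 libraries. Gh, the growth hormone gene, moved the other way as a share of the non-globin RNA. It went from 2180 to 1212 per 10000 in the 10X male and from 3007 to 1657 in the WT-8wk-0324-male library. Shares of the same total move against each other, and this fall did not mean fewer Gh UMIs per barcode. Non-globin UMIs per barcode rose from 54.7 to 247 in the 10X male and from 115 to 315 in the WT-8wk-0324-male library. This rise was larger than the fall of the Gh share, so Gh UMIs per barcode rose in both libraries. The part of free RNA in the terciles was not tested.

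**Figure D3:**
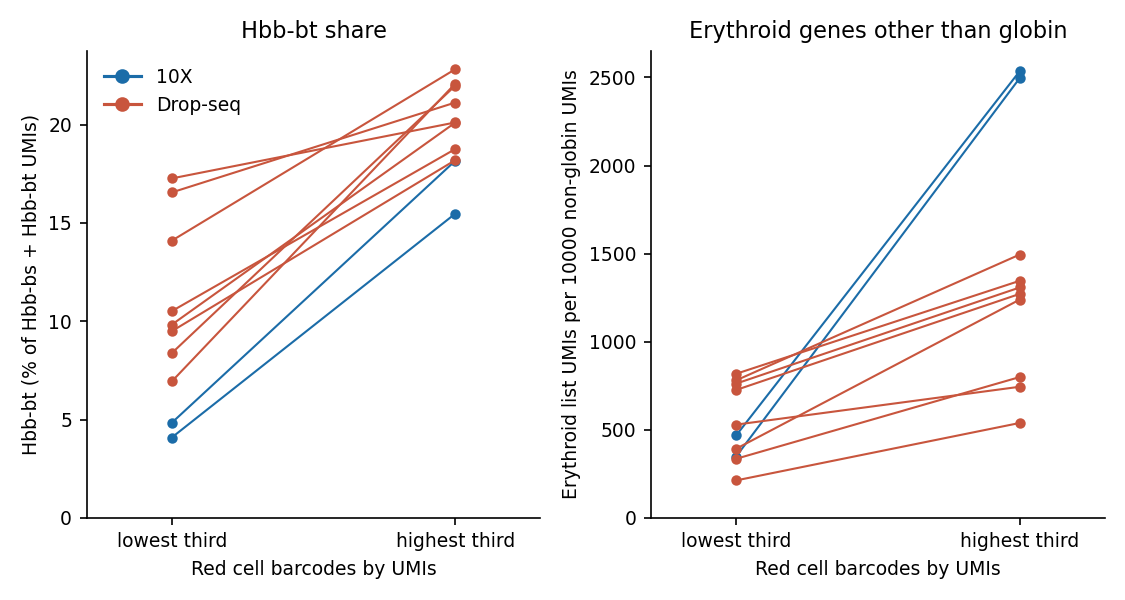
Hbb-bt as a percent of Hbb-bs plus Hbb-bt UMIs (left) and UMIs of the 3 erythroid lists per 10000 non-globin UMIs (right) in the lowest and highest tercile of red cell barcodes by UMIs, 1 line per library. All 10 lines rise in both panels, with the steepest steps of the right panel in the 10X libraries.

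Alas2, the erythroid enzyme that starts heme synthesis (chrX:150547375-150570638, plus strand), was not part of the selection and had the largest fold change of the named genes against other cells. Its level was 422 per 10000 non-globin UMIs in the 10X female, 509 in the 10X male, 250 in the mt/hGRF, 328 in the virgin, 290 and 147 in the lactating, 113 and 398 in the WT female, and 184 and 330 in the WT male libraries. In the other cell barcodes of the same libraries it was 0.00679 to 0.132, so the classes did not overlap. Of the 1554 members, 1296 (83.4%) held an Alas2 UMI, from 64.1% in the 10X female to 94.4% in the second lactating library. Of 24349 other barcodes 107 (0.439%) did. The others had fewer UMIs in total but more without globin. Their library median was 525.5 to 1249 UMIs, at most 0.430% globin over a library, against 81 to 214.5 non-globin UMIs in members. The label of red blood cells therefore held for the marker that had not been used to choose them.

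Summed per library and tested against the other cell barcodes with edgeR (quasi-likelihood, library as block, Benjamini-Hochberg over 5142 genes), 271 genes (5.27%) were higher and 1731 (33.7%) lower in red cell barcodes, with a median log2 fold change of -1.06 over all genes tested. That median shows the scale of the comparison: with TMM scaling it was -1.35 (214 higher, 2609 lower) and with DESeq2 size factors -2.95 (130 higher, 4888 lower), so a change is best read against it. Genes low in other cells pass the count filter through the red cell barcodes alone and are bound to be higher. Their folds and the counts within lists are therefore descriptions. By direction in every library, 100 of the higher and 710 of the lower genes had the same sign in 10 of 10 libraries.

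The genes with the largest increase and the same sign in every library were led by genes of heme and protein turnover. Alas2 was higher by 13.04 ± 0.48 (log2, SE) and Ube2l6, a ubiquitin-conjugating enzyme, by 10.76 ± 0.46. Bpgm, the enzyme that makes the 2,3-bisphosphoglycerate that lowers the oxygen affinity of hemoglobin, was higher by 8.96 ± 0.42. Rsad2, an interferon-inducible gene, and Gda, guanine deaminase, were higher by 9.22 ± 0.44 and 9.58 ± 0.44. The same rule named Hbb-bh1, the antisense gene Gm10371 and Rec114, a gene of meiotic recombination. Gm10371 rested on 78 UMIs in all members and Rec114 on 285, with library medians of 0 and 0.00931 per 10000 in other cells, and their folds depend on the prior count of the fit.

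Bpgm was above the other cell barcodes in 10 of 10 libraries. It stood at 83.3 and 141 per 10000 in the 10X female and male, 74.7 in the mt/hGRF, 84.4 in the virgin, 58.3 and 46.3 in the lactating, 32.8 and 84.7 in the WT female, and 42.6 and 86.4 in the WT male libraries. Other cell barcodes held 0.108 to 0.196. Mkrn1, a ubiquitin ligase, gave the most UMIs of the higher genes in the late maturation list, 3031, with 182 and 223 in the 10X libraries and 42.3 to 151 by Drop-seq, against 0.278 to 0.582 in other cells. The WT-8wk-0324-female library, with 44 members, was the lowest of the 10 for Alas2, Bpgm and Mkrn1.

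**Figure D4:**
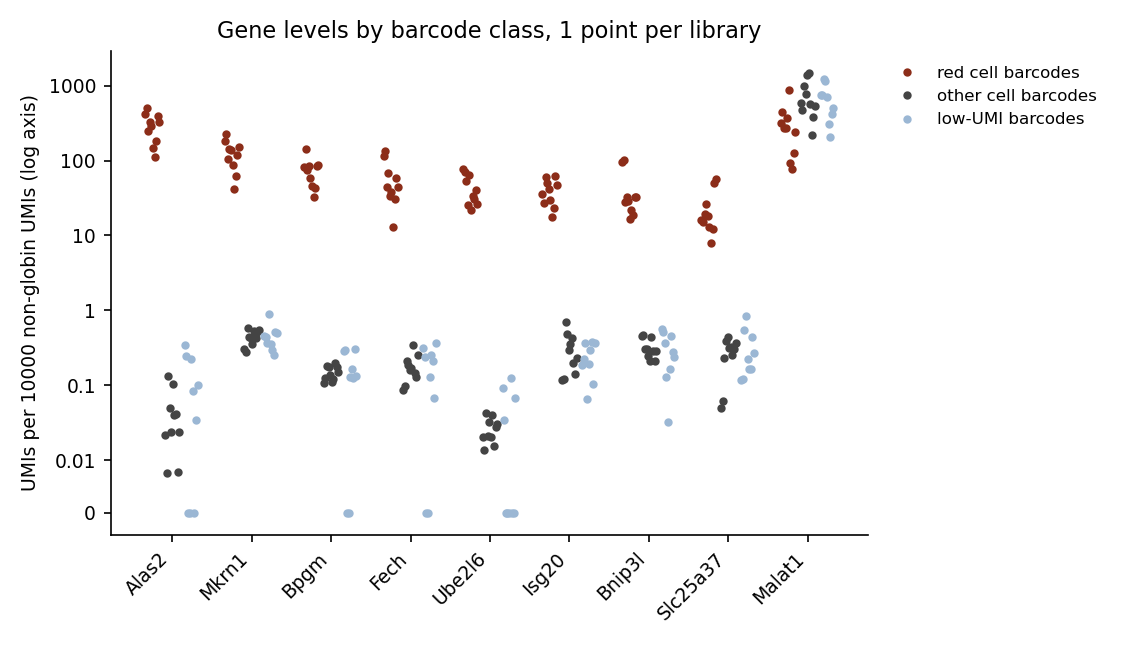
Level of 8 erythroid genes and of Malat1 in red cell, other cell and low-UMI barcodes (y axis, UMIs per 10000 non-globin UMIs, log axis with 0 drawn at the bottom), 1 point per library, with the second lactating library left out of the low-UMI points. The red cell points of the 8 erythroid genes lie above all points of the other classes, whereas those of Malat1 overlap them. All 8 were list members called higher, so this is a description of the genes drawn. Uros and Btg2, of the same lists but not drawn, were lower.

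In the heme and iron list, 13 of 19 genes were tested, 8 were higher and 1 lower, with a median log2 fold change of 3.84, where 5.27% of all genes tested were higher, 33.7% lower and the median was -1.06. Besides Alas2 these were Fech (8.28 ± 0.42), the ferrochelatase that completes heme, the mitochondrial carriers Slc25a37 (6.51 ± 0.39), which imports iron, and Slc25a39 (6.66 ± 0.39), Glrx5 (4.53), which serves iron-sulfur cluster assembly, Blvrb (3.84) and the ferritin chains Fth1 (2.41) and Ftl1 (5.52). Uros, an earlier enzyme of the pathway, was lower (-1.70) on 3 UMIs in all members, a call that was lost without any one of 8 libraries, all but the 10X male and the second lactating library, without which it was not tested (-1.65 to -1.37, adjusted p = 0.0528 to 0.135). Tfrc, the transferrin receptor that reticulocytes shed, did not pass the test (0.28 ± 0.54, adjusted p = 0.673, 8 UMIs). Ftl1 differed by platform, with 501 and 405 per 10000 in the 10X libraries and 1.48 to 9.81 by Drop-seq, a gene with many near-identical copies, whose part in the difference was not tested. The whole list summed to 1189 and 1229 per 10000 in 10X red cell barcodes, 177 to 647 by Drop-seq, and 11.3 to 26.9 in other cells.

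Of the late maturation list, 21 of 30 genes were tested, 19 were higher and 1 lower, with a median of 4.13 (5.27% and 33.7% of all genes, median -1.06). The genes of organelle removal Bnip3l (6.85 ± 0.39), which marks mitochondria for autophagy, Map1lc3b (4.09) and Gabarapl2 (3.92) were higher, as were the ubiquitin enzymes Ube2o (4.13), Ube2h (2.02) and Ube2b (1.67). Isg20 (7.22 ± 0.40), Fam46c (7.21 ± 0.40), Trim10 (7.92), Car2, a carbonic anhydrase (5.31), Wdr26 (2.15), Pim1 (1.89), Xpo7 (1.25) and Ypel3 (1.20) were also higher, and Btg2 was lower (-1.32). The Btg2 call was lost without the mt/hGRF, the virgin or the first lactating library (-1.18 to -1.08, adjusted p = 0.0533 to 0.0842) and with no filter. The Xpo7 call was lost without the second lactating library (0.53), WT-8wk-0324-male (1.09) or WT-8wk-0511-female (1.08). With DESeq2 size factors Ube2b, Xpo7 and Ypel3 changed direction (-0.18, -0.63 and -0.69), and Ube2h (0.12), Wdr26 (0.29) and Pim1 (0.0032) no longer passed.

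Membrane and skeleton genes were seen at low counts, and 7 of 24 were tested, with 3 higher, none lower and a median of 0.91. Over all genes 5.27% were higher and 33.7% lower, with a median of -1.06. Epb41, the gene of protein 4.1, was the most abundant of the higher ones at 13.6 to 109 per 10000 (5.72 ± 0.37). Slc4a1, the anion exchanger band 3, was too low for the test. It had 0 to 10 UMIs in any library (0 to 8.36 per 10000), in 9 of 10 libraries above the other cells.

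Of the antioxidant list, 9 genes were tested, 4 were higher and 4 lower, with a median of -1.13. Over all genes 5.27% were higher and 33.7% lower and the median was -1.06, so the lower count and the median of the list lay near those of all genes. Gpx1 (4.83 ± 0.37), Cat (4.86 ± 0.31), Prdx2 (3.88 ± 0.36) and Gclm (4.67) were higher. These are glutathione peroxidase, catalase, peroxiredoxin 2, which is abundant in red cells, and a subunit of the glutathione-making ligase. Sod1 (-1.20), Txn1 (-1.39), Prdx1 (-1.44) and Gstm1 (-1.43) were lower. The Sod1 call was lost without the 10X male library (-0.91) and the Txn1 call without the virgin (-1.21) or WT-8wk-0324-male library (-0.91). The Gstm1 call was lost without any one of 6 libraries, namely both 10X, the mt/hGRF, both lactating and WT-8wk-0511-male (-1.44 to -1.19, adjusted p = 0.0539 to 0.0818 in edgeR). With Drop-seq libraries alone the Sod1 (-0.75) and Gstm1 (-1.04) calls were lost, and with no filter those of Sod1, Txn1 and Gstm1. The Gstm1 call was also lost with a globin limit of 80%, in red cell barcodes under 200 genes and with all globin family genes removed.

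The transcription factors that drive the red cell program were counted at low levels in both classes. Their list summed to 0.799 to 9.15 per 10000 in red cell barcodes and 1.43 to 2.96 in other cells, higher in red cell barcodes in 8 of 10 libraries. Gata1 gave 1 UMI in the members and 6 in all other cells (0.0417 and 0.00160 per 10000), and Klf1 9 and 22 (0.375 and 0.00585 per 10000). Of the 9 Klf1 UMIs 7 came from the second lactating library, and without it Klf1 stood at 0.0971 per 10000 in the members. Of 14 regulators 4 were tested and 1 was higher, Lmo2 (3.52 ± 0.33), a partner in the Gata1 complex, with 44 UMIs, and the median was -0.40, against 5.27% higher and a median of -1.06 over all genes. In the cell division list, 4 of 10 were tested, 1 was higher and 1 lower, with a median of -0.03, against 5.27% higher, 33.7% lower and -1.06 over all genes. Mki67 was higher (2.25 ± 0.41, adjusted p = 1.21e-06) with 38 UMIs and above the other cells in 7 of 10 libraries. The second lactating library gave 21 of the 38 UMIs, and Mki67 was higher by 1.33 without it (adjusted p = 0.0157) and by 2.86 without the mt/hGRF library, and did not pass with DESeq2 size factors (0.46). Tubb5 was lower (-1.75 ± 0.48, adjusted p = 0.00228).

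RNA that stays in the nucleus was compared next. All 8 tested long noncoding RNAs of the nuclear list were lower, with a median of -1.85, against 33.7% of all genes lower and an all-gene median of -1.06. Malat1, Kcnq1ot1 (-1.24 ± 0.36) and Neat1 (-1.44 ± 0.51) lay within 1 SE of that median, and the Neat1 call was lost without the mt/hGRF or the first lactating library (-1.20 and -1.23). Malat1 was 318 and 450 per 10000 in the 10X libraries and 78.0 to 864 by Drop-seq, against 475 to 589 and 220 to 1487 in other cells, and was lower in red cell barcodes in 10 of 10 libraries (-1.31 ± 0.28, adjusted p = 4.93e-05). Xist was lower by the fit as well (-1.84 ± 0.38, adjusted p = 3.92e-05).

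By the fitted fold, the largest decreases belonged to genes with no UMI at all in red cell barcodes. There the fit depends on the prior count and only a lower bound can be given. These genes need not be the most decreased. They passed the count filter through the other cells alone, so their direction was fixed and their values are descriptions. Jun, an immediate-early transcription factor often induced when tissue is dispersed, had 0 UMIs against 1.56 per 10000 over all other cells. It was at least 12.5-fold lower by a floor of 3 counts over all members. Chtop, Srek1ip1, Tbce, Fbxl15, Fuz, Cpsf3, Lta4h, Ppwd1 and Por, named by the same rule, were also at 0 and at least 2.90-fold to 5.54-fold lower. The macrophage list had 7 of 8 genes lower, against 33.7% of all genes, with a median of -2.97 against -1.06. Cd74 was among them (-4.07). Most genes of this list were near 0 in red cell barcodes, so these values too are descriptions. The sum of the whole macrophage list was 0.295 to 5.39 per 10000 in red cell barcodes against 6.97 to 46.1 in others. Markers of other blood cells were too low for the test. The 9 neutrophil genes gave 2 UMIs in all members, at 0 to 0.353 per 10000 against 0.0911 to 10.8 in other cells, and the 8 lymphocyte genes gave 1, at 0 to 0.299 against 0.0625 to 0.965, and neither sum exceeded that of the other cells in any library. The 9 platelet genes gave 5 UMIs, at 0 to 2.40 against 0.0828 to 0.255, higher in red cell barcodes in 3 of 10 libraries. The 8 genes of endothelial cells, which line the vessels, also gave 5, at 0 to 1.31 against 0.157 to 0.496, higher in 4 of 10.

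Of the ribosomal protein genes 66 were tested, 7 were higher and 32 lower, with a median of -1.12, where 5.27% of all genes were higher, 33.7% lower and the median was -1.06. Their sum was 1002 and 1257 per 10000 in 10X red cell barcodes and 2973 to 3042 in 10X other cells, but 87.9 to 186 and 65.8 to 235 by Drop-seq, where the classes overlapped. Mitochondrial genes, limited by the selection and left out of the test, made up 2.40% to 10.7% of the non-globin RNA of red cell barcodes. In other cells they made up 1.22% to 3.84%. The limit was set on all UMIs, globin included, so it bound the non-globin RNA of other cells more tightly. The 2 ranges are therefore not a like comparison.

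Hormone RNA was present in red cell barcodes. With totals, 0 of 6 tested hormone genes passed the edgeR test in either direction, 0 had an unadjusted p under 0.05 and the median log2 fold change was 0.04, against -1.06 over all genes. With TMM 0 passed, 1 had an unadjusted p under 0.05 and the medians were -0.39 and -1.35. With DESeq2 size factors all 6 were lower, as were 4888 of the 5142 genes tested, with medians of -1.79 and -2.95, and in DESeq2 all 6 were lower with medians of -1.82 and -2.78. The scaling shifts all genes together, and the hormone median lay 0.96 to 1.16 above that of all genes under each of the 4. Gh, Prl (prolactin) and Pomc (the corticotropin precursor) together made up 1699 and 1709 per 10000 non-globin UMIs in the 10X female and male, 1422 in the mt/hGRF, 1796 in the virgin, 1855 and 2341 in the lactating, 1411 and 297 in the WT female, and 2490 and 610 in the WT male libraries. Prl stood above Gh in both lactating libraries (1043 and 1052 against 587 and 951), and Gh above Prl in each of the other 8, from 64.8 against 32.4 in WT-8wk-0511-female to 2070 against 111 in WT-8wk-0324-male. The order of Gh and Prl was the same in the other cells of each library. To see what the members hold beyond free RNA, they were compared with low-UMI barcodes, taken here as a proxy for free RNA. These were Drop-seq barcodes below 300 UMIs and 10X barcodes of 1 to 100 UMIs, without those of at least 50% globin UMIs. The classes of the 2 platforms are unlike. In the 10X female library 94229 low-UMI barcodes held 2759969 UMIs. In the mt/hGRF library 206 held 55104 and in the virgin library 591 held 154232, so most of these lay close to the limit of 300. The summed hormone level in red cell barcodes was 0.176 to 0.556 of that in low-UMI barcodes in 7 libraries. It was 1.37 and 1.26 times it in the mt/hGRF and virgin libraries, which had only 206 and 591 low-UMI barcodes. In both, unlike the other female libraries compared, low-UMI barcodes held more Xist than other cells (86.6 against 51.1 and 82.9 against 45.4 per 10000). They may be a poor proxy for free RNA there, which was not tested, and both libraries stay in the comparison below. The second lactating library had 8 such barcodes with 91 UMIs and was left out.

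The members were then compared gene by gene with the low-UMI barcodes. Over 9 libraries and 205 genes, 82 genes (40%) were higher and 85 (41.5%) lower (edgeR, as above), with a median log2 fold change of -0.42 (67 and 114 with TMM, 64 and 120 with DESeq2 size factors). Alas2 was higher by 11.37 ± 0.50, Ube2l6 by 10.22 ± 0.52, Rsad2 by 9.39 ± 0.53 and Bpgm by 8.76 ± 0.44. Fam220a was higher by 8.48 ± 0.41, Fech by 8.25 ± 0.48 and Mkrn1 by 8.18 ± 0.39. Rec114 and Gm10371 were higher by 9.87 and 9.73. A gene near 0 in low-UMI barcodes passed the count filter through the red cell barcodes alone and was bound to be higher. In the same way, a gene near 0 in red cell barcodes was bound to be lower. The folds of such genes and the counts of list members are therefore descriptions. All 7 tested genes of the heme list, all 12 of the late maturation list, Epb41, Prdx2 and Gpx1 were higher. Gh (-0.93 ± 0.36, adjusted p = 0.0166), Prl (-0.97 ± 0.33), Pomc (-0.98 ± 0.32) and Cga (-0.85 ± 0.35), the shared alpha chain of the glycoprotein hormones, were lower, as were Malat1 (-1.39), Meg3 (-1.37), Xist (-1.67) and Kcnq1ot1 (-1.28). The Gh call was lost without WT-8wk-0324-female (-0.89) or WT-8wk-0511-male (-0.84), and the Cga call without the 10X female (-0.78), WT-8wk-0511-female (-0.75) or WT-8wk-0511-male (-0.67). The 10 named decreases were Prrc2c (-2.75 ± 0.47), Snrnp70, Atrx, Ssr4, Tpr, Pnn, Htatsf1, Rrbp1, Ttc14 and Hnrnpa2b1 (-1.69), among them genes of RNA splicing and of the nuclear pore. Without the mt/hGRF library 542 genes could be tested and 121 were higher and 217 lower.

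UMIs of the embryonic beta-like globins were counted in red cell barcodes by Drop-seq and almost not at all by 10X. Hbb-bh1 and Hbb-y are genes of the primitive red cells of the embryo and are normally shut off in the adult. They lie beside the adult genes on chromosome 7. Hbb-bh1 gave 7 and 4 UMIs in the 10X female and male libraries. By Drop-seq it gave 1238 UMIs in the mt/hGRF, 753 in the virgin, 1147 and 376 in the lactating, 1558 and 626 in the WT female, and 1911 and 454 in the WT male libraries. Relative to 1000 UMIs of Hbb-bs plus Hbb-bt this was 0.0322 and 0.0119 in 10X, 6.10 in the mt/hGRF, 3.27 in the virgin, 5.71 and 3.93 in the lactating, 56.5 and 10.9 in the WT female, and 24.1 and 9.97 in the WT male libraries. All 8 Drop-seq libraries lay above both 10X libraries, with the WT-8wk-0324 libraries highest and the WT-8wk-0511 libraries next.

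Hbb-y was also highest in the WT-8wk-0324 libraries (31.3 and 12.6 per 1000) and lay at 1.73 to 5.08 in the other 6 Drop-seq libraries, with no UMI in 10X and 192 to 1000 UMIs by Drop-seq, and Hbb-bh1 exceeded it 1.25-fold to 2.36-fold in each Drop-seq library. Hbb-bh2 gave 0 and 1 UMIs in 10X and 25 to 99 by Drop-seq, and Hba-x, the embryonic alpha-like gene, 0 and 11 to 146. The UMIs were spread over the members and not held by a few barcodes. Hbb-bh1 was counted in 1103 of 1207 Drop-seq members (91.4%, 84.7% to 100% by library) and Hbb-y in 1016 (84.2%), with at most 144 and 107 UMIs in 1 member. Outside the members, the same libraries held 2.32 to 48.7 Hbb-bh1 UMIs per 1000 adult beta-globin UMIs, also highest in the WT-8wk-0324-female library. In both the lowest and the highest tercile of members by UMIs the ratio lay between 2.74 and 62.0, higher in the highest tercile in 8 of 8 libraries. The 9 globin family genes measured besides the 4, Hbq1a and Hbq1b included, made up 2.03% to 20.3% of what is called non-globin RNA here by Drop-seq and 0.0708% and 0.116% in 10X, and removing the whole globin family from the totals gave 285 genes higher and 1330 lower against other cells.

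**Figure D5:**
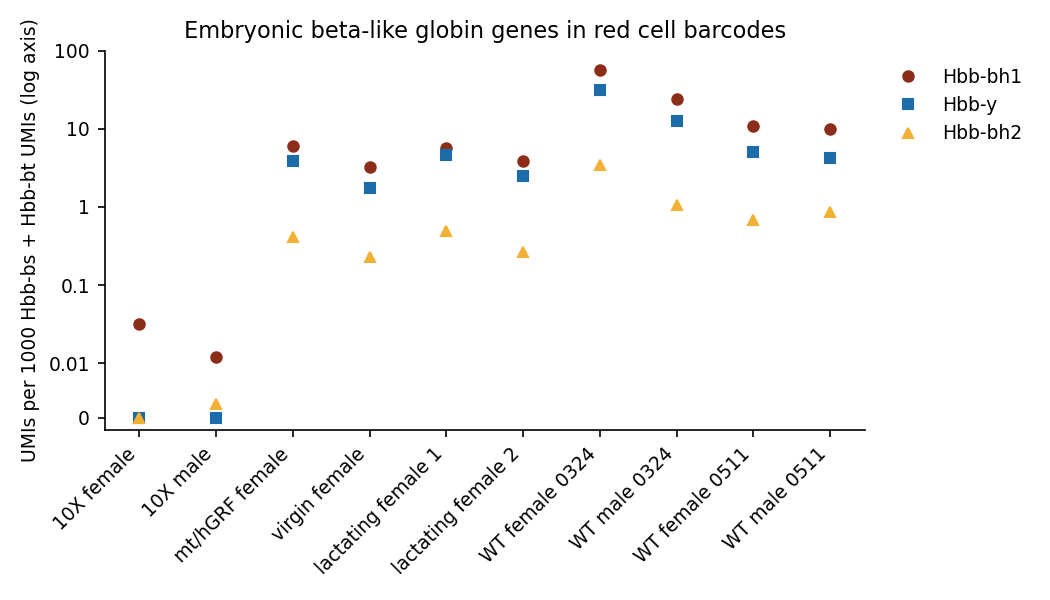
UMIs of Hbb-bh1, Hbb-y and Hbb-bh2 per 1000 UMIs of Hbb-bs plus Hbb-bt (y axis, log axis with 0 drawn at the bottom) in the red cell barcodes of each library. The 8 Drop-seq libraries hold 3.27 to 56.5 for Hbb-bh1, and the 10X libraries 0.0322 and 0.0119.

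The coding sequences were compared because embryonic and adult beta-globin reads could be exchanged where they are alike. Over the 444 coding bases Hbb-bh1 differs from Hbb-bs at 115 positions and Hbb-y at 114 (74.1% and 74.3% identity), and no 50-base window of either transcript occurs in Hbb-bs. The most alike stretch of Hbb-bh1 and Hbb-bs, coding bases 277 to 326 counted from the A of the start codon, is shown in the GENCODE vM21 transcripts, with bases that differ from Hbb-bs in capitals.
Hbb-bs: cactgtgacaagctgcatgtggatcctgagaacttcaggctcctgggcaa
Hbb-bt: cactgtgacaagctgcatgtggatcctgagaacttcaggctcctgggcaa
Hbb-bh1: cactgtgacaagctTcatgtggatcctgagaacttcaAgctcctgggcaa
Hbb-y: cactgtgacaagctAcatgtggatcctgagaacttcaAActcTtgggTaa
Hbb-bh2: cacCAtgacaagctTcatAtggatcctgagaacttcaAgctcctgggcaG
In this window Hbb-bt differs from Hbb-bs at 0 bases, Hbb-bh1 at 2, Hbb-y at 5 and Hbb-bh2 at 6. The mice may also differ from the reference strain here. The part of read assignment in the embryonic globin counts was not tested, since the files hold counts and no read positions.

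The sexes, lactation and the transgene were then compared in the non-globin RNA of the members. Between 3 male and 3 female libraries of 8 weeks, 0 of 98 genes tested (0%) passed in edgeR with platform as covariate. 1 gene had an unadjusted p under 0.05 in edgeR and 1 in DESeq2, which called 0. The replicate block, which pairs the female and male library of 10X, WT-8wk-0324 and WT-8wk-0511, also called 0. Xist fell below the count filter. With no filter in edgeR it was the only call among 9015 genes (-7.25 ± 1.28, male minus female, adjusted p = 0.000140). It had 0 UMIs in every male library, so this fold depends on the prior count of the fit.

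For lactation, 0 of 392 genes (0%) passed between the 2 lactating libraries and the virgin library, with 5 at an unadjusted p under 0.05 in edgeR and 4 in DESeq2, which called 0. For mt/hGRF against the 2 WT female Drop-seq libraries, 0 of 392 (0%) passed, with 20 and 12 at an unadjusted p under 0.05 and 0 called by DESeq2. Both comparisons have 1 library on one side and assume that it varies like the others. The members held 7636 to 40830 non-globin UMIs per library, which limits these comparisons to large changes in abundant genes.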

How the data were processed

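The authors deposited raw, unnormalized UMI counts per gene and barcode for 10 mouse pituitary libraries. In the methods of the authors, reads of Drop-seq were aligned to mm10 and uniquely mapped exonic reads on the annotated strand were counted on Gencode vM13 with UMIs within 1 edit merged, and the deposited 10X counts came from Cell Ranger, its version not given in the sources used here. The labels also name STAR 2.5.2a. Libraries held 1044698 to 9348789 UMIs in passing barcodes. Intervals are exact binomial (95%) and cover counting error only.

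Counts were summed per library over red cell barcodes, other passing barcodes and low-UMI barcodes, over 24751 genes present on both platforms, without mitochondrial genes and the 4 globins. Sums were tested with edgeR 4.0.16 (glmQLFTest, filterByExpr, two-sided, Benjamini-Hochberg at 0.05, R 4.3.3), with DESeq2 1.42.0 as an alternative. TMM had been planned for all fits. In simulated data with 4-fold changes in 200 of 5142 genes, TMM recovered 84.0% in red against other cells but 43.2% of its calls were false, against 70.0% recovered and 3.45% false with library totals. On this ground the 2 class comparisons are scaled by totals, a change made after the counts were seen, and TMM is an alternative. The simulated classes shared the same composition apart from the 200 genes, changed up or down at random. In the data 271 genes were higher and 1731 lower. The simulation therefore cannot show which scaling suits the data. The group comparisons use TMM, which recovered 70.8% of 24 genes changed 4-fold for sex with 0 false calls. Levels are UMIs per 10000 UMIs without the 4 globins. Exact permutation tests used scipy 1.17.1. Libraries sharing a label (10X, WT-8wk-0324, WT-8wk-0511) were treated as pairs in an alternative. Their deviations from the mean of their sex correlated at 0.964, 0.831 and 0.803 over 98 genes. Each pair shares its platform and the mean of each sex spans both platforms, so all these correlations also carry the platform difference.

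The members, gene lists and tests were chosen with earlier results of these data known. Genes named are the 10 with the largest change in each direction and the same sign in every library, list members past the threshold and those that define a list. Some genes that this rule names are not reported here. Members were selected on globin share, so that share is not tested. Alternatives changed the globin, UMI and gene limits, scaling, filter, tool and libraries. The number of mice behind the 10X libraries is not given in the sources used here, and p-values measure the spread between libraries. Promoters are RefSeq (GRCm38.p6), and gene positions and transcripts GENCODE vM21.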

Additional observations from a re-analysis of the deposited data

Results flagged for a closer look

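Globin-rich barcodes were also present below the limit of 300 UMIs, outside the comparisons. Among barcodes of 100 or more and under 300 UMIs, 43 in the 10X female and 39 in the 10X male library held at least 50% globin UMIs, as did 18 in the WT-8wk-0511-female and 11 in the WT-8wk-0511-male library. The other 6 Drop-seq libraries together held 2 of them. The counts of 43, 39, 18 and 11 lie above the 3 that a count of 0 would allow. The Drop-seq libraries differ in how many barcodes below 300 UMIs they hold. Low-UMI barcodes numbered 8 to 1512 in those 6, and 3195 and 2611 in the WT-8wk-0511 female and male libraries. The counts are therefore not compared between libraries. What these globin-rich barcodes hold beyond globin was not tested. No group holds the 4 libraries that a search for single outlying libraries needs.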

How the results depend on the processing

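Of 1360 gene values against other cells, 1305 kept their direction and side of the threshold under the alternatives, 47 lost the call and 8 changed sign, and of 754 against low-UMI barcodes 740 kept both, 12 lost the call and 2 changed sign. Against other cells, DESeq2 size factors gave 130 genes higher and 4888 lower, DESeq2 gave 123 and 4857, TMM gave 2609 lower, and with no filter 763 were higher. With DESeq2 size factors and in DESeq2, Ube2b was -0.18 and -0.19, Xpo7 -0.63 and -0.96, and Ypel3 -0.69 and -0.70, and against low-UMI barcodes Ypel3 was -0.10 in both. Xpo7 was -0.048 with a globin limit of 80% and -0.23 in red cell barcodes under 200 genes. Against low-UMI barcodes, no filter gave 520 higher and 594 lower, the 80% limit 54 lower and barcodes under 200 genes 56 lower, both of which test fewer genes, and leaving out 1 library gave 62 to 217 lower. The cause of these changes was not tested. A globin limit of 90% left 858 members and the gene limits of the study 268.

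For sex, 1 gene (Xist) was lower in males with no filter, and 0 to 1 when a library was left out. The replicate block called 0 genes in either direction for sex and changed no other call, with mean male minus female differences within pairs of 2.59 percentage points for red cell barcodes, 0.881 for Hbb-bt, -3.68 for alpha and 0.414 for Hba-a1. The sex difference, male minus female, ran from -0.25 to 2.04 percentage points for the Hbb-bt share and from -11.2 to 2.66 for the alpha share when 1 library was left out. Between terciles, the differences in the Hbb-bt share (9.08 to 10.4), the alpha share (-5.29 to -3.76), the 3 erythroid lists (695 to 909 per 10000) and Alas2 (139 to 200 per 10000) kept their sign when 1 library was left out, as they did between the lower and upper 50% of members (7.28, -2.96, 656 and 125). The tercile comparison with its alternatives, scaling by totals for the class comparisons, the pairs for the 4 shares and the removal of all globin family genes were chosen after the data were seen, whereas TMM had been planned.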
